A study of Mus musculus with 7 samples.

Results

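Chromatin accessibility was compared between IL-4+ and IFNγ+ CD4+ T cells of the lung at day 8 of infection with the nematode Nippostrongylus brasiliensis, over 113820 regions and in 5 of the 7 libraries of the series. The assay was ATAC-seq, in which a transposase inserts sequencing adapters into open DNA, so that the insertions in a region count its accessibility. All mice were C57BL/6 and had received 500 L3 larvae under the skin, and 50000 sorted cells went into each library. IL-4+ cells (n = 3 libraries, replicates 1 to 3) were the GFP+ cells of the IL-4 4get reporter line, which makes GFP in cells that transcribe Il4. IFNγ+ cells (n = 2, replicates 1 and 2) were the YFP+ cells of the IFN-gamma GREAT line, which makes YFP from the Ifng locus. The other 2 libraries held IL-4+ cells of the mediastinal lymph node (LN) of the 4get line and are given beside the lung values where they help to place them. Tissue, day and infection were thus the same in both lung groups, while the cytokine and the reporter line changed together and cannot be told apart. Neither group had a lung library without infection or without the reporter in the table used here. The study describes the replicates as mice of a single experiment, and the p-values below measure the spread between these libraries.

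CD4+ T cells take on alternative effector fates. Type 2 helper (Th2) cells make IL-4, IL-5 and IL-13, are specified by the transcription factor GATA3, and drive the response to worms that pass through the lung. Type 1 helper (Th1) cells make IFNγ, are specified by T-bet (Tbx21) together with Runx3 and by IL-12 acting through STAT4, and are known from infections with intracellular microbes. The promoters and enhancers of the cytokine genes of one fate are open in the cells of that fate and largely closed in the other.

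The deposited values are log2 insertions per kilobase of region, normalized by the authors, and a difference below is always lung IL-4+ minus lung IFNγ+, so that positive values mean more open chromatin in IL-4+ cells. The 5 lung libraries held between 14005923 and 91681969 insertions by a lower bound rebuilt from ties in the table, with a median of 53 to 176 per region. The median region was 486.5 bp long. Libraries stood apart in a way that crossed the groups, and the deposited values had nearly the same distribution in each library although the rebuilt insertions did not. A log2 difference is therefore one of normalized values and not a plain fold of insertion rates. In lung IL-4+ replicates 2 and 3 the interquartile range of log2 insertions per region was 1.74 and 1.65, whereas it was 2.89 in lung IL-4+ replicate 1 and 3.07 and 3.04 in the IFNγ+ libraries. The X chromosome followed the same division. Its 2181 regions lay below the autosomes by a median of -0.87 and -0.94 log2 in lung IL-4+ replicates 2 and 3, and above them by 0.15 in lung IL-4+ replicate 1 and by 0.21 and 0.26 in IFNγ+ replicates 1 and 2. In the LN IL-4+ libraries these values were -0.98 and 0.38. The labels used here do not give the sex of the mice. As a result the median difference over X-linked regions was -0.67 against 0.01 on the autosomes, and it was -0.06 with replicate 1 as the sole IL-4+ library. Values of X-linked genes (Cxcr3, Foxp3, Cysltr1, Sh2d1a and Car5b below) are to be read against it.

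The sequences below show the largest change in each direction and called regions of genes named in the text. Each is the central 300 bases of a called region that holds no annotated exon in that window, taken from the RefSeq GRCm38 genome on the plus strand. Capitals mark matches, on either strand, to letters bound by factor families of the 2 fates. These are AGATAA for GATA factors, AACCACA for Runx factors and AGGTGTG for T-box factors such as T-bet. A match is a description of letters and not a shown binding site, and a Runx match and a T-box match can share bases.
Il4 intron, higher in IL-4+ (chr11:53605194-53605493): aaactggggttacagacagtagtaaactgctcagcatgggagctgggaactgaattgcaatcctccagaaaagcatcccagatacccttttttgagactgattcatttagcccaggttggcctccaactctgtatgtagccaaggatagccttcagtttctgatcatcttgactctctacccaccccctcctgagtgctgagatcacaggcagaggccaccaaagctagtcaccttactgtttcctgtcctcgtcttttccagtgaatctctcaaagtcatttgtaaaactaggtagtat
Intergenic near Snrpf, the largest change toward IL-4+ (chr10:93611495-93611794): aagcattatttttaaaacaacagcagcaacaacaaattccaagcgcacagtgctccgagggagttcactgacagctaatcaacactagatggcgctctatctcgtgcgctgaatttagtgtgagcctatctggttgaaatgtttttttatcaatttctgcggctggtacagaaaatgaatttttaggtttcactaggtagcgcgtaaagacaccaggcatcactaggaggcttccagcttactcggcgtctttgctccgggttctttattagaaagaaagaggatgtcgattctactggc
Pparg intron, higher in IL-4+ (chr6:115481851-115482150): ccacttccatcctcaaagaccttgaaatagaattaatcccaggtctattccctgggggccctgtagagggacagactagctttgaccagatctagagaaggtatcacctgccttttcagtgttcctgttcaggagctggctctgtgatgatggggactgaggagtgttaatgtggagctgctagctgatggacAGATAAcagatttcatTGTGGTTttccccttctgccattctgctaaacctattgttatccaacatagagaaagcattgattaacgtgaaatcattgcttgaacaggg
Ifng upstream, higher in IFNγ+ (chr10:118435447-118435746): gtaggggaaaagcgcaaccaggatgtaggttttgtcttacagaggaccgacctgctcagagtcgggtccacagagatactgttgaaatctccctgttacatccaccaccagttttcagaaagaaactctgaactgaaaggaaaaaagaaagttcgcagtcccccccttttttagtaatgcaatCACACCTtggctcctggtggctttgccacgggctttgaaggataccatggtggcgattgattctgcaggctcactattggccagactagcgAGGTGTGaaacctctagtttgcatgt
Il12rb2 intron, higher in IFNγ+ (chr6:67348059-67348358): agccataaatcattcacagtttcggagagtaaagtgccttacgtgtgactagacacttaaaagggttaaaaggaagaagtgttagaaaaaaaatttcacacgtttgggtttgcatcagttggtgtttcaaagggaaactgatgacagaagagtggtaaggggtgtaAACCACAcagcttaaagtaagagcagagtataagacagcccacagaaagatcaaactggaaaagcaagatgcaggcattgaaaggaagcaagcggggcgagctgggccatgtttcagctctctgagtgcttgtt
Il12rb2 other intron region, higher in IFNγ+ (chr6:67367178-67367477): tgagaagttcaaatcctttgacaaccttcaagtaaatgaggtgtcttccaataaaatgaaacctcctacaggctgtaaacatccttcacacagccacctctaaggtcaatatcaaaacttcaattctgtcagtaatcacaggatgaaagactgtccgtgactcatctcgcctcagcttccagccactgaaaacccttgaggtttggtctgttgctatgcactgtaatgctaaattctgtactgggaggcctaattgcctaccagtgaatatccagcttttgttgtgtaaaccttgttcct
Cxcr3 upstream, higher in IFNγ+ (chrX:101737272-101737571): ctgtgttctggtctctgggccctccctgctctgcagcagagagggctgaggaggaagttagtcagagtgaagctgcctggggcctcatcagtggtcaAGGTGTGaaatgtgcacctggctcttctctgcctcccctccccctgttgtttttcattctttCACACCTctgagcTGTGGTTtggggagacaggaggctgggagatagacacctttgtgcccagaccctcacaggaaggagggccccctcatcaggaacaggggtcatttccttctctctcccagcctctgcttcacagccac
Serpinb2 intron, the largest change toward IFNγ+ (chr1:107533763-107534062): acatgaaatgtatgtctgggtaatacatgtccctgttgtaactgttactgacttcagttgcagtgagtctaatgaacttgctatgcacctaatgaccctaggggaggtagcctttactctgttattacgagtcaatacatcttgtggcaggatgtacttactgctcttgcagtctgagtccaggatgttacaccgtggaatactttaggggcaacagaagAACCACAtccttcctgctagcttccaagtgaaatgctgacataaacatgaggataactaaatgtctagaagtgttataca
The windows of Il4, of Snrpf and of the other Il12rb2 intron region held none of the 3 motifs. The Pparg window held 1 GATA and 1 Runx match, the Ifng window 2 T-box matches, the first Il12rb2 window 1 Runx match, the Cxcr3 window 1 Runx and 2 T-box matches, and the Serpinb2 window 1 Runx match. Windows over promoters were examined too but are not printed. Of all 11 windows examined that were higher in IFNγ+, 7 held a Runx or T-box match and 4 held neither. Of the same 11, 2 held a GATA match and 3 held none of the 3 motifs. Of the 5 higher in IL-4+, 1 held a GATA match and 4 held none of the 3 motifs. The shares over all called regions are given at the end.

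Lung IFNγ+ cells had more regions of higher accessibility than lung IL-4+ cells. In the limma fit over all 7 libraries, where a call needed at least 3-fold and a p below 0.05 after Benjamini-Hochberg adjustment, 123 regions (0.108% of all) were higher in IL-4+ and 441 (0.387%) were higher in IFNγ+ cells. The median difference was 2.00 in the former and -2.21 in the latter. With the 3 regions near Snrpf described below set at their lower bounds, the former was again 2.00. These counts rested on single libraries. Leaving out lung IFNγ+ replicate 1 or 2 left 1 and 0 regions higher in IL-4+ and 0 and 0 higher in IFNγ+ by limma (unadjusted, 1086 and 1789, and 1375 and 1593, passed 0.05). With the omission of lung IL-4+ replicate 1, 2 or 3 there were 262, 0 and 5 regions higher in IL-4+ and 906, 1 and 40 higher in IFNγ+ by limma, and without LN IL-4+ replicate 1 or 2 the counts were 272 and 291, and 834 and 817. Each unadjusted count here also required 3-fold, and those without lung IL-4+ replicate 2 were 1050 and 1963. Of the 55 regions named by rule, none changed sign in any of 21 other fits that tested it, and 50 of them entered the fit restricted to accessible regions. These regions were chosen from the same values, some for groups without overlap, so that their sign could hardly change. Without regard to the test, every IL-4+ library exceeded every IFNγ+ library in 19.4% of regions and lay below every one in 21.2%.

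**Figure D1:**
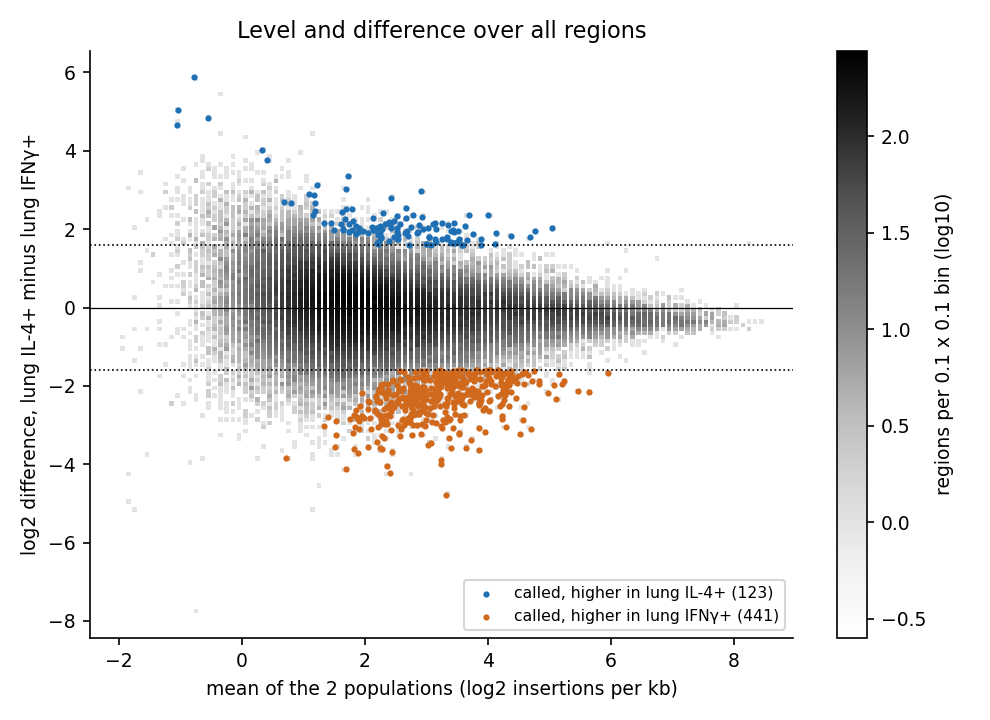
Mean level of the lung IL-4+ and lung IFNγ+ groups (x axis, log2 insertions per kb) against their log2 difference (y axis) for all 113820 regions, with grey squares shaded by the number of regions per bin, called regions in colour and dotted lines at 3-fold. The 123 called regions higher in IL-4+ cells (blue) extend to a difference of 5.87 and the 441 higher in IFNγ+ cells (orange) to -4.79, and the uncalled region at the bottom, near Timd2, lies at -7.72.

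Replicate 1 of the IL-4+ group lay nearest to the IFNγ+ libraries. Against the mean of the IFNγ+ libraries, it had 1687 regions at least 3-fold higher and 2279 at least 3-fold lower. Replicate 2 had 5439 and 5672, and replicate 3 had 6723 and 6856. The IFNγ+ libraries differed from each other by at least 3-fold in 554 and 634 regions. Replicate 1 entered the fit, which favours regions where the replicates go together. Taken alone, replicate 1 differed from the IFNγ+ mean by at least 3-fold at 108 of the 123 called regions (87.8%) and at 362 of the 441 (82.1%). In the regions higher in IL-4+ the median log2 levels were 3.62, 3.61 and 3.49 in IL-4+ replicates 1 to 3, and 1.26 and 1.69 in the IFNγ+ libraries. In those higher in IFNγ+ they were 2.25, 2.11 and 1.97, and 4.37 and 4.23. The replicates of each group were thus close at the called regions, which the fit itself favours.

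The LN IL-4+ cells, which shared the reporter but not the tissue, sat differently in the called sets. At regions higher in IFNγ+ cells, the LN mean was nearer to the lung IL-4+ than to the lung IFNγ+ mean in 394 of 441 (89.3%), against 57.7% of all regions. At regions higher in lung IL-4+ cells, the LN mean was nearer to lung IL-4+ in 70 of 123 (56.9%), a share like that of all regions. The LN libraries entered the fit, and the called regions were chosen by their lung values, as all regions were not. These shares are thus a description.

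The called regions lay away from promoters. A promoter was a region within 1 kb of the start of a protein-coding transcript, and promoters were 18.7% of all regions but 3.25% of those higher in IL-4+ and 2.95% of those higher in IFNγ+. Introns held 44.7% and 47.2% of the calls (41.9% of all regions) and intergenic DNA 35.8% and 41.5% (27.4% of all). The median distance to a transcription start was 25.3 kb and 31.2 kb, against 13.5 kb over all regions. The regions higher in IL-4+ were longer, with a median of 836 bp against 475 bp for those higher in IFNγ+. Their mean GC contents were 47.4% and 45.6%, and 47.8% over all regions. With a region called accessible in a group at a mean of at least 5 insertions per kilobase, 84 of the 123 regions were accessible in IL-4+ and not in IFNγ+ cells, and 256 of the 441 in IFNγ+ and not in IL-4+ cells. A further 32 and 185 were accessible in both groups and differed in degree.

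The 4 called promoters higher in IL-4+ cells belonged to Il4, Chdh, Brd1 and Gramd1b. Chdh, which encodes choline dehydrogenase, lies next to Il17rb, the gene of a receptor subunit for the type 2 cytokine IL-25. The called Chdh promoter (chromosome 14, 30009717 to 30010542) had log2 levels of 3.03, 2.88 and 2.92 in IL-4+ and 0.70 and 1.26 in IFNγ+ libraries. The groups did not overlap, and the difference was 1.96 (standard error 0.34, limma adjusted p = 0.0373). The promoter of Il17rb itself was not called (difference 1.10, limma adjusted p = 0.410). The 13 called promoters higher in IFNγ+ cells belonged to 12 genes, namely Samd3, Klra5, Klrc1, Gzmk, Ccl4, Kcnj8, Zbtb20, Cxcr3, Ifng, Haao and Olfr156 with 1 each and Il12rb2 with 2. Their differences ran from -1.66 at Olfr156 to -3.23 at Samd3.

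Among the Th2 cytokine genes, the called regions lay at Il4, and all were more accessible in lung IL-4+ cells. Of the 66 regions within 10 kb of the 10 genes of this list, 3 (4.55%) were called higher in IL-4+ cells, against 0.108% of all regions. The median difference was 0.62 (58 of 66 above 0), against a median of -0.01 and 49.7% above 0 over all regions. An intron region of Il4 (chromosome 11, 53604629 to 53606059), whose centre is printed above, had log2 levels of 4.32, 4.61 and 4.31 in the IL-4+ libraries and 2.08 and 2.90 in the IFNγ+ libraries. The lowest IL-4+ library lay well above the higher IFNγ+ library, and the difference was 1.92 (standard error 0.27, limma adjusted p = 0.0200). The Il4 promoter region (53616846 to 53618000) had levels of 3.45, 4.26 and 4.11 against 1.55 and 2.33. It differed by 2.00 (standard error 0.34, limma adjusted p = 0.0351), and the LN IL-4+ libraries, at 4.14 and 3.65, were like the lung IL-4+ ones. An intergenic stretch (53626465 to 53628259) that lies less than 10 kb from Il4 and from Il13 had levels of 4.63, 4.91 and 4.72 against 2.81 and 3.20, a difference of 1.75 (standard error 0.22, limma adjusted p = 0.0158). The reporter cassette of the 4get line sits in the Il4 gene, so that cells sorted as GFP+ were chosen for transcription of this locus.

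Summed over a gene and 10 kb on each side, normalized insertions at Il4 were 119, 172 and 157 in the IL-4+ libraries and 39.6 and 54.4 in the IFNγ+ libraries, a difference of 1.67 on the log2 scale. At Il13 the sums were 85.3, 105.9 and 102 against 31.8 and 39.3 (difference 1.46). For these sums the groups did not overlap, and a two-sided exact permutation test gave p = 0.1. Its 10 arrangements of 3 against 2 libraries allow none smaller, so that no locus sum can pass 0.05. Over 17020 protein-coding loci, every IL-4+ library lay above every IFNγ+ library in 24.8% and below in 28.8%, and the middle 90% of differences ran from -0.70 to 0.61. Il5, which encodes the eosinophil growth factor of the same gene cluster, had sums of 34.6, 39.0 and 34.9 against 23.9 and 23.6 (0.60), which is within that range. Rad50 lies between Il13 and Il5 and carries the locus control region of the cluster. Its sums were 106.7, 117 and 122 against 64.1 and 61.3 (0.88). None of its 10 regions was called by limma (3 at an unadjusted p below 0.05 and 3-fold, and 1 by voom on rebuilt counts). Its median region differed by 1.15. Of the 10 cytokine loci, 8 lay above in every IL-4+ library, and the libraries overlapped at Areg and Il10.

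**Figure D2:**
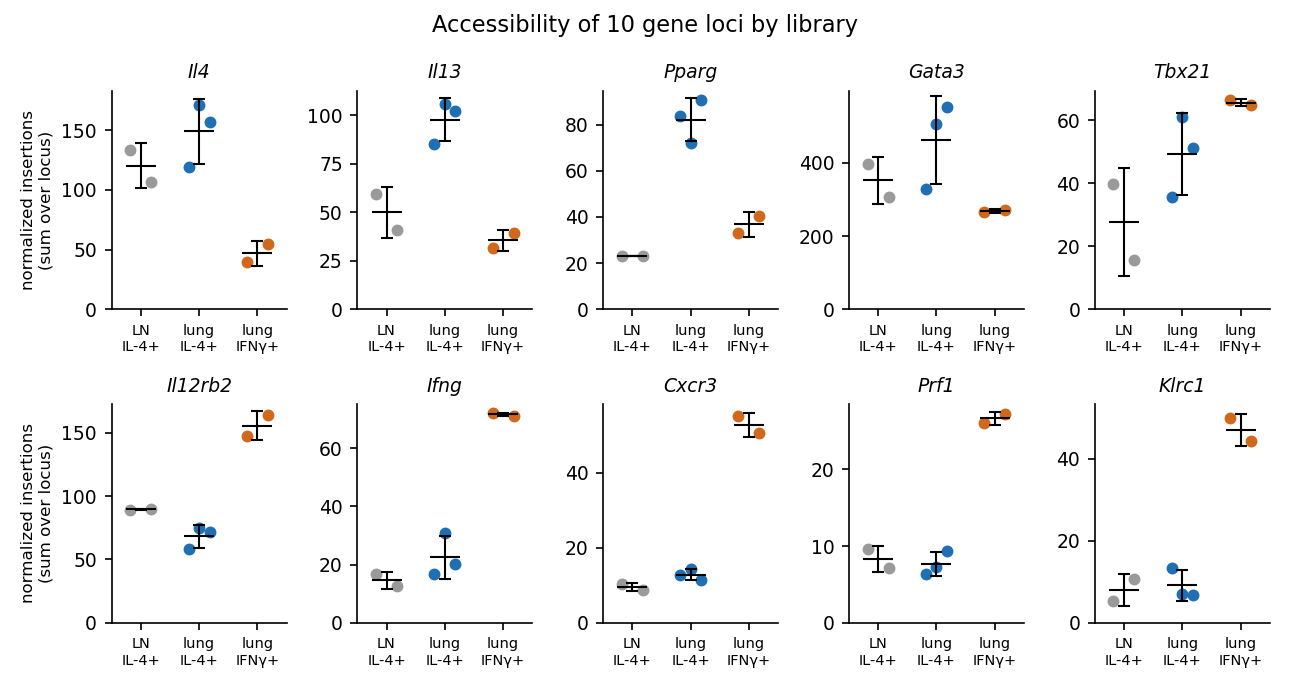
Normalized insertions summed over 10 gene loci with 10 kb on each side (y axis, from 0) in each library, with points for libraries and a bar with whiskers for the mean and SD of LN IL-4+ (grey, n = 2), lung IL-4+ (blue, n = 3) and lung IFNγ+ cells (orange, n = 2). The lung groups do not overlap at any of the 10 loci, with lung IL-4+ above at Il4, Il13, Pparg and Gata3 and below at the others. Of all protein-coding loci, 24.8% lie above and 28.8% below in this way.

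Among Th2 transcription factors, Pparg stood out. It encodes a lipid-activated nuclear receptor known to act in Th2 cells of the lung. Its locus sums were 83.6, 72.2 and 90.6 in IL-4+ and 33.1 and 40.6 in IFNγ+ libraries (difference 1.16), and 23.0 and 23.1 in LN IL-4+ cells. The called intron region (chromosome 6, 115481628 to 115482374, printed above) had log2 levels of 4.62, 4.07 and 4.51 against 2.61 and 2.99, with a difference of 1.60 (standard error 0.28, limma adjusted p = 0.0379). It was the 1 region called of the 207 in this list (0.48%, against 0.108% of all regions), whose median difference was 0.50. It was called in 7 of the 21 other fits. Gata3 had sums of 327, 506 and 553 against 265 and 272 (0.75), with replicate 1 the lowest of the IL-4+ libraries. None of its 26 regions was called by limma (1 at an unadjusted p below 0.05 and 3-fold, and 1 by voom on rebuilt counts). Of the 11 loci of the list, 9 lay above in every IL-4+ library, from Cebpb (0.27) to Pparg, against 24.8% of all protein-coding loci. The libraries overlapped at Maf and Stat5b.

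The Th2 receptors and enzymes were mixed. Of 157 regions, 1 (0.64%, against 0.108% of all regions) was called higher in IL-4+ cells, the Chdh promoter next to Il17rb. The median difference was 0.43. Every IL-4+ library lay above at 7 of 13 loci and below at 3, against 24.8% and 28.8% of all protein-coding loci. Il4ra, the shared receptor chain for IL-4 and IL-13, had sums of 310.0, 505 and 531 against 248.5 and 272 (0.75). Ccr4, a chemokine receptor of Th2 cells, had 180.3, 209 and 201 against 125 and 124 (0.65). Il1rl1, which encodes the IL-33 receptor ST2, had 116, 142 and 163 against 104 and 111 (0.38), and 45.5 and 39.9 in LN IL-4+ cells. Its promoter had log2 levels of 3.51, 4.00 and 4.25 against 2.55 and 2.84 (1.22, limma adjusted p = 0.155). None of its 23 regions was called by limma, 6 were higher in IL-4+ at an unadjusted p below 0.05 and 3-fold, and voom on rebuilt counts called 2. The loci below in every IL-4+ library were Hpgds, a prostaglandin D2 synthase, with 50.5, 44.0 and 35.2 against 79.0 and 64.1 (-0.73), and Ccr3 (-0.47) and Ptgdr2 (-0.35), which encode receptors for eotaxin and prostaglandin D2.

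Among the Th1 cytokine and chemokine genes, regions at Ifng, Ccl3, Ccl4 and Ccl5 were called higher in IFNγ+ cells. Of their 59 regions, 5 (8.47%) were called higher in IFNγ+ cells, against 0.387% of all regions. The median difference was -0.96, and 6 regions lay above 0. The Ifng promoter region (chromosome 10, 118440693 to 118441133) had log2 levels of 3.81, 4.02 and 3.502 in the lung IL-4+ libraries and 5.60 and 5.69 in the IFNγ+ libraries. The difference was -1.87 (standard error 0.29, limma adjusted p = 0.0247), and the lung IL-4+ cells lay between the IFNγ+ cells and the LN IL-4+ cells (0.53 and 1.34). The upstream Ifng region printed above (118435290 to 118435904), 5449 bp from the start, had levels of 1.24, 2.35 and 1.55 against 4.89 and 4.69. Here the difference was -3.08 (standard error 0.38, limma adjusted p = 0.0155), and the LN IL-4+ libraries, at 1.00 and 1.43, were like the lung IL-4+ ones. Locus sums at Ifng were 16.6, 30.8 and 20.3 against 72.0 and 71.2 (-1.71). Between 118435290 and 118550626, 5 of 29 regions were called, all toward IFNγ+ and all with Ifng as the nearest gene. YFP is made from this locus, so that the sort chose cells that transcribe it.

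At 3 inflammatory chemokine genes the IFNγ+ cells were likewise more accessible. An intergenic region within 10 kb of Ccl3 (chromosome 11, 83640131 to 83640606) had log2 levels of 2.42, 1.70 and 2.21 against 5.01 and 4.65 (difference -2.72, standard error 0.32, limma adjusted p = 0.0138). The Ccl4 promoter (83662174 to 83662600) had 0.86, 1.13 and 1.36 against 3.84 and 3.46 (-2.53), and an intergenic region within 10 kb of Ccl5 (83536346 to 83537412) had 2.23, 2.31 and 2.21 against 4.10 and 3.91 (-1.75). All 3 were called. The locus sums differed by -1.83, -1.99 and -1.42. Xcl1, the gene of a chemokine of cytotoxic cells, had sums of 5.87, 3.21 and 2.53 against 13.3 and 11.8 (-1.79), and its promoter missed the call (difference -2.28, limma adjusted p = 0.0665). Tnf and Lta, which neighbour each other, lay above in every IL-4+ library instead (0.35 and 0.42).

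Of the genes of the cytotoxic programme, Prf1 and Gzmk each had a region called higher in IFNγ+ cells. These were 2 of the 45 regions of the list (4.44%, against 0.387% of all regions), and the median difference was -0.75. The called region near Prf1, the perforin gene (chromosome 10, 61306137 to 61306595), had log2 levels of 2.42, 2.38 and 2.43 against 4.61 and 4.805. The spread within groups was small beside the difference of -2.30 (standard error 0.25, limma adjusted p = 0.01005). The Gzmk promoter (chromosome 13, 113180756 to 113181160) had 0.60, 0.47 and 0.58 against 2.98 and 3.32 (-2.60, limma adjusted p = 0.0438). Of 8 loci, 7 lay below in every IL-4+ library, against 28.8% of all protein-coding loci. Among them, Gzma had sums of 15.7, 14.6 and 10.5 against 30.5 and 25.3 (-1.05). Gzmb had 9.55, 11.2 and 11.5 against 14.003 and 16.2 (-0.49, or -0.26 with rebuilt counts thinned to equal depth). At Ctsw the libraries overlapped.

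Killer cell lectin-like receptors, which natural killer and activated T cells carry, showed the highest share of calls of the lists. Of 48 regions, 5 (10.4%) were called toward IFNγ+, against 0.387% of all regions, and the median difference was -0.92. All 8 loci lay below in every IL-4+ library, against 28.8% of all protein-coding loci. The Klrc1 promoter (chromosome 6, 129678660 to 129679094), at the gene of the receptor NKG2A, had log2 levels of 1.81, 1.04 and 1.69 against 4.35 and 4.07. The difference was -2.70 (standard error 0.35, limma adjusted p = 0.0158), and LN IL-4+ cells had 1.74 and 1.66. A region near Klrk1, the gene of NKG2D (129627442 to 129627910), had 1.07, 0.59 and -0.22 against 4.04 and 3.79 (-3.43, limma adjusted p = 0.0201). The other called regions lay next to Klrc1 (-2.53), near Klrb1c (-1.96) and near Klra9 (-2.84). Klrc1 and Klrc2 and the Klra genes are near-identical copies. The authors removed reads of low mapping quality, so that these values rest on reads that could be placed in one copy.

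Markers of cells that the sort should remove were checked beside these lists. The gate left out CD8, NK1.1, CD11b, CD11c, B220 and Ter119. Of the 4 CD8 T and natural killer markers, Ncr1 had no region, Cd8a had sums of 2.20, 2.09 and 1.75 against 2.61 and 1.95, Cd8b1 had 4.89, 8.42 and 7.68 against 6.52 and 5.29, and Klrb1c, which encodes NK1.1, had 72.1, 69.0 and 71.5 against 110.2 and 113. Over the list, the summed level was 79.2 to 80.9 in IL-4+ and 119 to 120.3 in IFNγ+ cells, a gap made by Klrb1c. Of the 6 myeloid markers, Lyz2 had no region and 4 of the other 5 lay below in every IL-4+ library, against 28.8% of all protein-coding loci. Itgam had 10.9, 10.3 and 12.003 against 30.4 and 25.8 (-1.34) and Itgax 14.1, 11.2 and 13.5 against 31.7 and 28.1 (-1.21). The summed level of the myeloid markers was 111 to 121 in IL-4+ and 147 to 156 in IFNγ+ cells. The B cell markers had 159 to 175 and 154 to 163, those of lung epithelium and endothelium 205.5 to 261 and 177 to 183, and those of basophils, mast cells and eosinophils 26.03 to 30.1 and 31.7 to 34.5, with no region for Mcpt8, Fcer1a, Epx and Prg2. The part of other cells in the values above was not tested. The T cell markers were accessible in both groups, with promoter log2 levels of 4.51, 4.74 and 4.64 against 4.47 and 4.39 at Cd4 and 4.25, 4.59 and 4.71 against 4.04 and 3.96 at Cd3e. In bulk cells, a lower value can mean fewer cells with an open region or fewer insertions per cell, which cannot be told apart.

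Of the Th1 receptors, Il12rb2 and Cxcr3 differed most. Il12rb2 encodes the signalling chain of the IL-12 receptor. Of its 28 regions, 4 were called higher in IFNγ+ cells, and its locus sums were 58.1, 74.7 and 71.7 against 147.6 and 164 (-1.20). The intron region printed above (chromosome 6, 67347957 to 67348460) had log2 levels of 4.06, 3.88 and 3.90 against 6.17 and 6.38 (difference -2.33, standard error 0.22, limma adjusted p = 0.01005). LN IL-4+ cells had 4.40 and 5.13, between the lung groups. Farther upstream, an intergenic region (67399534 to 67400032) had 2.18, 1.63 and 2.31 against 5.67 and 5.67, the largest difference among the regions nearest to this gene (-3.63, standard error 0.26, limma adjusted p = 0.0033). From 67338797 to 67432154, 7 of 18 regions were called toward IFNγ+, reaching into the neighbouring Il23r, where 2 of these lay within 10 kb of the gene.

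Cxcr3 encodes the chemokine receptor of Th1 cells. Its promoter (chromosome X, 101733774 to 101734358) had log2 levels of 2.84, 2.46 and 2.00 in IL-4+ and 4.52 and 4.38 in IFNγ+ libraries (difference -2.01, standard error 0.30, limma adjusted p = 0.0231). The upstream region printed above (101737145 to 101737698) had 2.56, 1.44 and 1.80 against 4.86 and 4.76 (-2.88, standard error 0.53, limma adjusted p = 0.0456). Its locus sums were 12.7, 14.3 and 11.4 against 54.9 and 50.5 (-2.05), the largest difference of the 20 loci chosen for description. Replicate 1, whose X chromosome level was close to that of the IFNγ+ libraries, lay below the IFNγ+ mean by -1.60 at the promoter and -2.26 at the upstream region. Over the whole list 7 of 198 regions were called, all toward IFNγ+ (3.54%, against 0.387% of all regions), and the median difference was -0.12. Of 14 loci, 5 lay above in every IL-4+ library, among them Ifngr2 (0.70), Il27ra (0.39) and Il12rb1 (0.39), and 4 lay below. Over all protein-coding loci these shares were 24.8% and 28.8%.

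The Th1 transcription factors themselves held no calls. None of their 165 regions was called by limma in either direction (2 and 2 at an unadjusted p below 0.05 and 3-fold, and 0 and 0 by voom on rebuilt counts), and the median difference was 0.07. Over all regions 0.108% were called toward IL-4+ and 0.387% toward IFNγ+, so that 0 calls among 165 regions are near those shares. Of the 12 loci, 2 lay above and 4 below in every IL-4+ library, against 24.8% and 28.8% of all protein-coding loci. Tbx21 had locus sums of 35.5, 61.1 and 51.1 against 66.3 and 64.8 (-0.45, or -0.23 without lung IL-4+ replicate 1 and -0.21 with 25 kb on each side), and its promoter had mean log2 levels of 2.42 in IL-4+ and 2.41 in IFNγ+ cells. Stat4, which carries the IL-12 signal, had 283, 295 and 325 against 332 and 337 (-0.16), and Hlx had 52.8, 57.8 and 50.8 against 67.7 and 60.9 (-0.26). Runx3 lay above in every IL-4+ library, with 188, 275 and 310 against 177 and 184 (0.48). At Eomes, with 52.3, 65.9 and 58.4 against 54.3 and 48.6, the libraries overlapped.

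Other gene lists held at most 3 calls. Tissue residency genes had 3 of 330 regions called, all toward IFNγ+ (0.91%, against 0.387% of all regions). They lay in introns of Itga1 (-2.20, limma adjusted p = 0.0201), the gene of the collagen-binding integrin CD49a, and Hopx (-1.69), and near Zfp683, the gene of Hobit (-1.95). Rora had none of its 108 regions called by limma (3 toward IL-4+ and 1 toward IFNγ+ at an unadjusted p below 0.05 and 3-fold, and 1 and 1 by voom on rebuilt counts). The median difference of this list was 0.08. Regulatory and Th17 genes had the 2 calls at Il23r among 145 regions (1.38%) and a median of -0.24. The locus sums of Il23r were 16.6, 14.5 and 18.8 against 45.1 and 41.2 (-1.38), while Foxp3, on the X chromosome, lay above in every IL-4+ library with 133, 156 and 169 against 97.8 and 115 (0.52). The Foxp3 promoter lay the other way, with log2 levels of 0.76, -0.76 and 0.69 against 1.31 and 1.74 (-1.29, limma adjusted p = 0.382). By limma, no region was called among 260 of Tfh genes, 381 of stem-like and egress genes, 141 of AP-1 and partner factors and 97 of T cell identity genes. Over all regions 0.108% and 0.387% were called toward IL-4+ and IFNγ+, so that 0 calls in lists of this size are near those shares. At an unadjusted p below 0.05 and 3-fold these 4 lists had 4, 14, 3 and 1 regions toward IL-4+ and 7, 1, 0 and 0 toward IFNγ+, and voom on rebuilt counts called 1 in all, in the stem-like list. Their median differences were 0.07, 0.29, 0.51 and 0.40. Ccr7, Satb1 and Tcf7, of the stem-like list, had differences of 0.97, 0.97 and 0.80, and Jund and Fosl2, of the AP-1 list, 0.84 and 0.78. In each of these 5 loci replicate 1 lay nearer to the IFNγ+ libraries than replicates 2 and 3 did, as at Ccr7 with 106.8, 187 and 206 against 78.7 and 85.1.

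**Figure D3:**
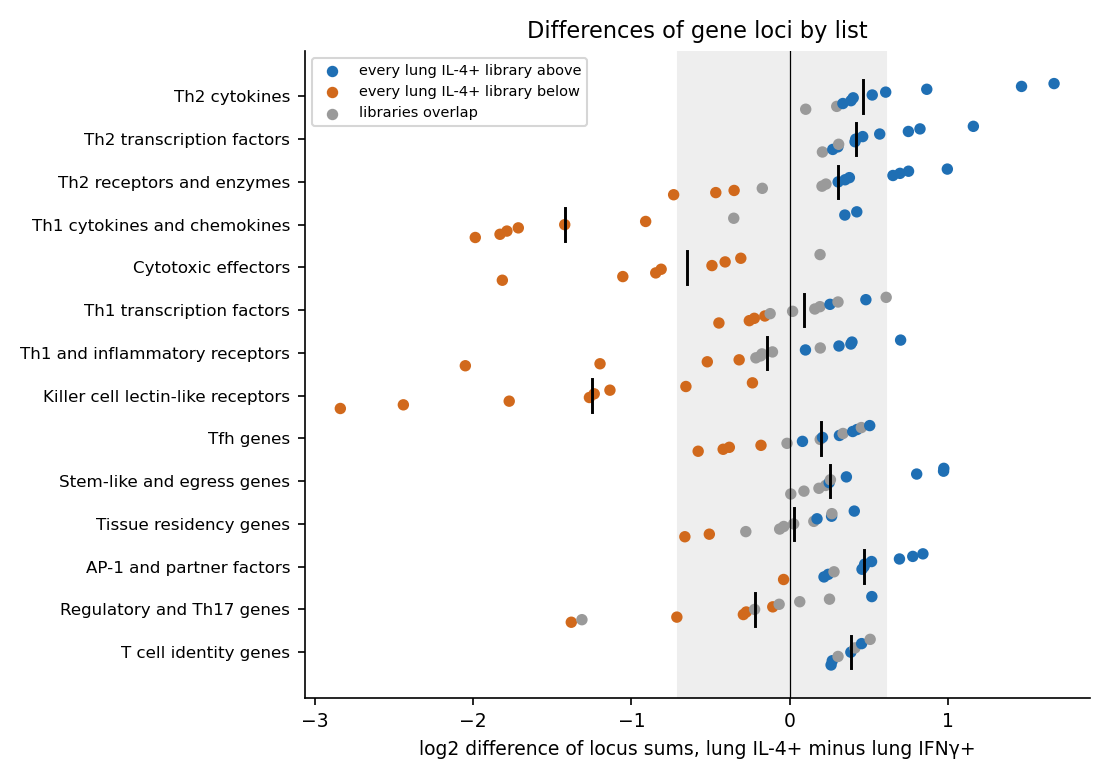
Log2 difference of locus sums, lung IL-4+ minus lung IFNγ+ (x axis), for each gene (points) of 14 lists, with black bars at list medians, colours for loci at which every IL-4+ library lay above (blue) or below (orange) every IFNγ+ library, and grey shading for the middle 90% of 17020 loci. Members of 6 lists, namely Th1 cytokines and chemokines, cytotoxic effectors, killer cell lectin-like receptors, Th1 and inflammatory receptors, regulatory and Th17 genes and Th2 receptors and enzymes, reach below -0.70, the lower edge of the shading, and Th2 cytokines reach 1.67.

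Most of the largest changes lay away from genes known from T helper cells. Toward IFNγ+, the largest was an intron region of Serpinb2, the gene of plasminogen activator inhibitor 2, with Serpinb10 as the nearest start (chromosome 1, 107533702 to 107534123, printed above). Its log2 levels were -0.23, 1.49 and 1.53 in IL-4+ and 5.75 and 5.68 in IFNγ+ libraries, a difference of -4.79 (standard error 0.53, limma adjusted p = 0.0103). Replicate 1 was the lowest library there. Next came an intron of Ntn4 (-4.22), an exonic region near Cox10 (-4.12), an intergenic region near Serpinb8 (-4.05), an intron of Car5b on the X chromosome (-3.99), intergenic regions near Usp44 (-3.89) and Lta4h (-3.84), an intron of March3 (-3.70) and an intergenic region near Spink2 (-3.69), followed by the Il12rb2 region above. Toward IL-4+, the 10 largest included 3 regions near Snrpf (5.87, 5.05 and 4.66) and 2 in an intron of Camk2b (4.83 and 3.77). At the Snrpf regions both IFNγ+ libraries had a count of 0, and the lower bounds described below were 4.05, 3.22 and 2.84. The others were regions near Gm21190 (4.02), Zfp791 (3.36) and Gm10260 (3.12), in an intron of Cdk17 (3.02) and in an exon of Gemin5 (2.98). The Gemin5 region (chromosome 11, 58126139 to 58127071) had the smallest standard error of these 10, with levels of 4.48, 4.58 and 4.16 against 1.45 and 1.403 (standard error 0.22, limma adjusted p = 0.0033). By nearest gene, the most calls toward IFNγ+ were 7 at Il12rb2, 5 at Ifng and 4 each at Arsb and Serpina12, and toward IL-4+ 5 at Elk3 and 3 each at Snrpf, Ykt6, Plcb4 and Nav2.

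Calls gathered in places. With calls at most 200 kb apart joined and at least 4 required, a rule chosen after the values were seen, 9 stretches held 57 of the calls, 17 toward IL-4+ and 40 toward IFNγ+. The Ifng, Il12rb2 and killer cell lectin-like receptor loci were among them. The largest ran over 944.7 kb of chromosome 10 (93041232 to 93985897), from Cfap54 past Cdk17, Elk3, Lta4h, Snrpf, Ntn4 and Usp44 to Vezt. There 19 of 185 regions (10.3%) were called, 12 toward IL-4+ and 7 toward IFNγ+, side by side. At all 19, the LN IL-4+ mean was nearer to the lung IL-4+ than to the lung IFNγ+ mean. Chromosome 10 carries Ifng, the reporter locus of the GREAT line, and held 61 calls, 15 toward IL-4+ (0.213% of its regions) and 46 toward IFNγ+ (0.654%). Of these 15, 12 lay in the stretch above. Over all regions the shares were 0.108% and 0.387%. After chromosome 10, the highest shares toward IFNγ+ were on chromosomes 12 and 18 (0.611% and 0.587%), which carry neither Ifng nor Il4. The part of the reporter loci in these shares was not tested. Chromosome 11 carries Il4, the reporter locus of the 4get line, and held 19 calls toward IL-4+ (0.262%), the most of any chromosome, and 15 toward IFNγ+ (0.207%). Its median difference was 0.25.

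**Figure D4:**
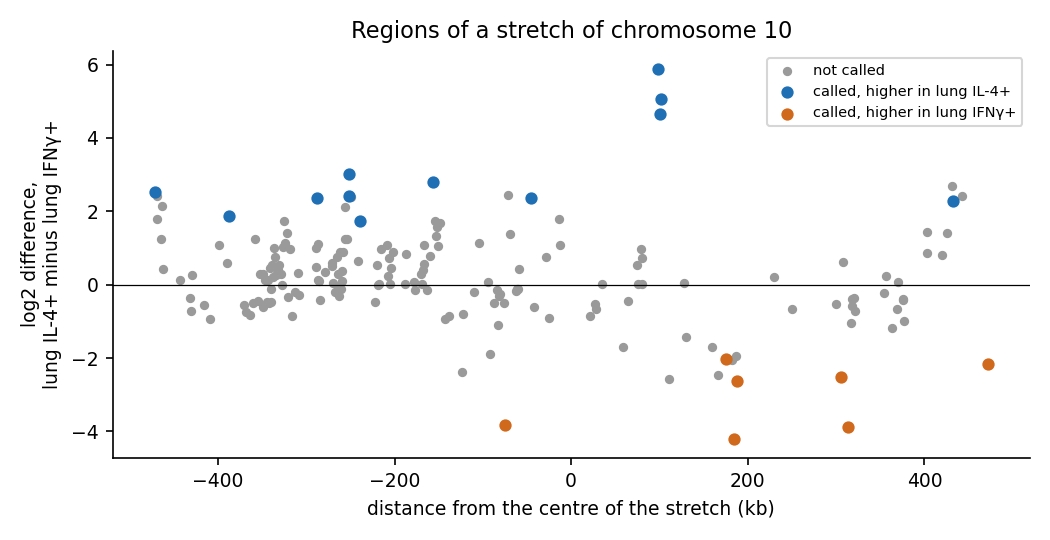
Log2 difference, lung IL-4+ minus lung IFNγ+ (y axis), of each of the 185 regions of the largest stretch on chromosome 10 against its distance from the centre of the stretch in kb (x axis), with called regions in blue (higher in IL-4+, 12) and orange (higher in IFNγ+, 7). The 3 highest points, from 4.66 to 5.87, are the regions near Snrpf at which both IFNγ+ libraries had a count of 0.

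At 4 regions a whole group was without insertions, with 20 or more in every library of the other. In 3 intergenic regions near Snrpf (93611393 to 93611897, 93614248 to 93614648 and 93614817 to 93615271), both IFNγ+ libraries had a rebuilt count of 0. The first had 141, 70 and 39 insertions in IL-4+ replicates 1 to 3 and 86 and 339 in LN IL-4+ cells, the next 39, 53 and 21 with 69 and 115, and the last 56, 55 and 28 with 92 and 328. With a floor of 3 insertions per IFNγ+ library, and by the smaller of the folds on the normalized scale and on rebuilt counts per library total, the 3 regions were at least 16.5-fold, 7.14-fold and 9.35-fold higher in lung IL-4+ cells. The fourth lay between genes near Timd2 on chromosome 11 (46667946 to 46668431). All 3 lung and both LN IL-4+ libraries were at 0, and the IFNγ+ libraries had 168 and 429 insertions, at least 27.7-fold more by the same floor and the same choice of scale. It was not called by limma, since its fitted difference of -7.72 had a standard error of 2.06 (adjusted p = 0.138). In these 4 regions all libraries of the 4get line fell on one side.

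The sequences of the called regions differed in motif content between directions, a feature that the calls did not use. In the central 300 bases, the GATA motif was found in 33.3% of regions higher in IL-4+ (Wilson 95% interval 25.6% to 42.1%), 10.7% of those higher in IFNγ+ (8.11% to 13.9%) and 15.2% of all regions. The Runx motif was in 29.9% of those higher in IFNγ+ (25.8% to 34.4%), 11.4% of those higher in IL-4+ (6.90% to 18.2%) and 11.0% of all. The T-box motif was in 20.4% (16.9% to 24.4%), 6.50% (3.33% to 12.3%) and 7.75% in the order of IFNγ+, IL-4+ and all regions. A Runx and a T-box match together were found in 24 regions higher in IFNγ+ (5.44%) and 0 of 123 higher in IL-4+, which allows a share of up to 2.44%, against 0.93% of all regions. The bZIP motif (TGACTCA or TGAGTCA), bound by AP-1 and BATF, was in 8.13% of regions higher in IL-4+, 8.16% of those higher in IFNγ+ and 9.49% of all. In the same order NFAT (TGGAAAA) was in 8.13%, 4.54% and 7.16%, Tcf (TTCAAAG) in 4.88%, 9.98% and 7.72%, and the E-box (CACGTG) in 7.32%, 6.58% and 5.28%. The intervals count regions, which are not independent where they neighbour each other. With the regions of the 9 stretches left out, GATA was in 36.8% of the 106 regions higher in IL-4+, and Runx and T-box were in 31.2% and 19.95% of the 401 higher in IFNγ+.

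**Figure D5:**
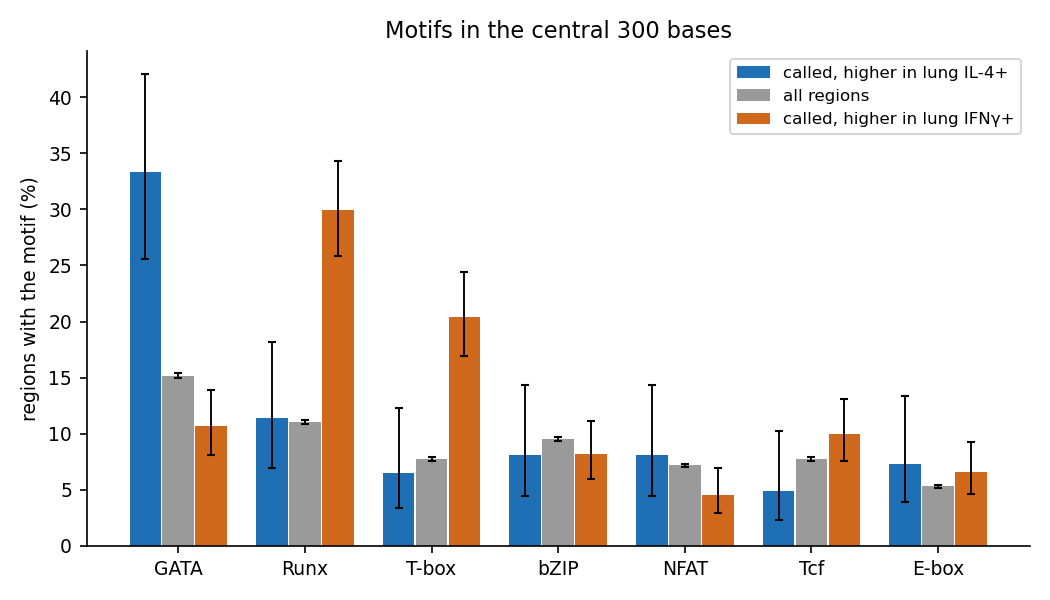
Share of regions with each of 7 motifs in the central 300 bases (y axis, percent, from 0) among the 123 regions higher in lung IL-4+ (blue), all 113820 regions (grey) and the 441 higher in lung IFNγ+ cells (orange), with Wilson 95% intervals. The GATA share is highest in the blue set (33.3%), and the Runx (29.9%) and T-box (20.4%) shares are highest in the orange set.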

How the data were processed

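The authors mapped ATAC-seq reads to GRCm38 with Bowtie2 2.3.2, called summits in each replicate with MACS2 2.1.1, merged regions around them over replicates, counted transposase insertions per region and normalized them with voom (limma 3.38.3, R 3.5.1). The deposited values are log2 insertions per kilobase after that normalization. The value distributions nearly coincided between libraries, for which no step is given in the sources used here, so that log2 differences are not plain folds of insertion rates. Counts were rebuilt from ties in each library, as a lower bound on depth.

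The log2 values of all 7 libraries, in 3 groups, were fitted with limma 3.58.1 in R 4.3.3 (moderated variances with a trend), with Benjamini-Hochberg adjustment over 113820 regions. Calls needed an adjusted p below 0.05 and 3-fold. Locus sums added the antilog values times region length over a gene and 10 kb on each side, and were compared by exact two-sided permutation tests. Genes and promoters came from the GENCODE M21 basic annotation. Sequences and GC content came from RefSeq GRCm38, and motifs were searched on both strands with Python 3.11.15. The fit was run on simulated data, and recovery of planted changes was required only at a spread below that of these libraries.

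Named were the 10 largest non-overlapping calls and the 10 genes with most calls per direction, up to 4 genes with calls per list, 20 loci, called promoters, and regions at 0 in one group with at least 20 insertions in every library of the other. Further members of the lists were named after their values were seen. The comparison, 19 lists of 175 genes and tests were chosen with earlier results of these data known. Alternatives changed the libraries, covariates, weights, normalization, filter, pseudocount, test and thresholds. Counting intervals and floors cover counting error only.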

Additional observations from a re-analysis of the deposited data

How the results depend on the processing

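The counts of called regions, 123 higher in lung IL-4+ and 441 higher in lung IFNγ+ cells, depended on the fit, and the cause was not tested. Counts are given in that order. Larger counts came with the 5 lung libraries alone (294 and 901), the spread class as a covariate (570 and 746), array weights (3121 and 3440), voom on rebuilt counts (252 and 840) and an adjusted p below 0.1 (298 and 829). A 4-fold threshold left 61 and 288, an adjusted p below 0.01 left 1 and 1, and median centring gave 70 and 439. By limma there were 0 and 0 calls with the treat test and without a variance trend. At an unadjusted p below 0.05 and 3-fold, as for all unadjusted counts here, these fits had 81 and 297, and 1454 and 2090. With lung IL-4+ replicate 1 as the sole IL-4+ library, chosen after seeing the data, there were 0 and 1 (1135 and 1779 unadjusted). Leaving out 1 library at a time gave 0 to 291 and 0 to 906. Replicate numbers were not taken to pair the samples, since the lung groups came from different reporter lines. The deviations of same-numbered lung libraries correlated at -0.015 and -0.014. These values cannot decide on pairing, because the deviations of the IFNγ+ libraries mirror each other. With the replicate block limma called 0 and 0 regions (909 and 1643 unadjusted), and with the block and a GC correction 0 and 0 (999 and 1693). The locus sum difference of Ccr8 reversed to -0.012 with thinned rebuilt counts, from 0.20. With 25 kb on each side the locus sum differences of Ifng, Il12rb2 and Il5 were -1.09, -0.68 and 0.39, and with the gene body alone that of Il13 was 0.83. Of the 55 named regions, none reversed, which their choice from these same values largely fixed. All 55 lost their call under the block, the treat test, no variance trend and without either IFNγ+ library.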
